A study of Mus musculus with 6 samples.

Results

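The genes described here encode 34 components of the lysosome: its glycosidases and sulfatases, its lipid hydrolases and their activators, a few other hydrolases, and proteins of its membrane. They were taken by symbol from the deposited table of 38124 genes, and 34 of 34 were found there. Cathepsins, the proton pump and the genes of sterol release were not among them. RNA came from bone-marrow-derived macrophages, which are macrophages grown in culture from the marrow of C57BL mice, with the genotype given as wild type. There were 3 untreated libraries and 3 libraries of macrophages kept for 24 hr with thymocytes, immature T cells that had been made apoptotic with the glucocorticoid dexamethasone, at a ratio given as 1:40. The apoptotic cells had been removed before RNA was extracted, the samples are stated to be biological replicates, and whether they came from separate mice is not given in the sources used here.

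Lysosomes are acidic organelles in which macromolecules taken up by a cell, or delivered by autophagy, are cut into their building blocks. Most of the soluble enzymes are tagged with mannose 6-phosphate in the Golgi and sorted by receptors for that tag, and a typical enzyme removes 1 kind of sugar, sulfate, fatty acid or phosphate from the end of a chain. A chain is therefore taken apart in a fixed sequence of steps, and the inherited lack of any single enzyme leaves its substrate undegraded, which gives the lysosomal storage diseases. Macrophages that engulf apoptotic cells deliver membrane lipids, glycoproteins, nucleic acids and organelles of the dead cells to this compartment.

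Lysosomal genes did not move as a block. Of the 34 genes, all of which passed the expression filter of at least 1 RPKM (reads per kilobase of gene, scaled to the mapped reads of the library) in at least 3 libraries, 17 rose, 8 fell and 9 did not pass the test (limma on log2(RPKM + 1), adjusted p under 0.05 over 10173 genes). These are 50% and 23.5% of the genes, beside 18.8% of all tested genes that were higher and 46.0% that were lower, 64.8% in all. The median change of the 34 genes was 0.12 on the log2 scale, and that of all tested genes was -0.13. The sizes were moderate: changes ran from -0.84 (Arsb) to 0.96 (Psap), and 0 of 34 went beyond 1 in either direction, which 8.13% of tested genes did. The untreated and treated ranges did not overlap for 18 genes that were higher and 8 that were lower, against 20.4% and 49.1% of tested genes, or 69.6% in either direction.

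The split depended on the scaling between libraries. Median-of-ratios scaling, called rescaling below, moved the median of all tested genes from -0.13 to 0.02, and with it 24 of the 34 genes were higher and 6 lower, against 31.8% and 27.9% of tested genes. Under that scaling, 7 genes that had not passed were higher (Hexa, Gla, Idua, Galns, Asah1, Lamp2 and Grn), and the calls of Manba and Sgsh were lost. The sign of 4 genes, Man2b1, Fuca1, Sgsh and Galns, turned from negative to positive. Relative to the median tested gene, 26 of the 34 genes lay above and 8 below. Cell number and RNA per cell cannot be read from values scaled to the mapped reads of each library, and protein was not measured.

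**Figure D1:**
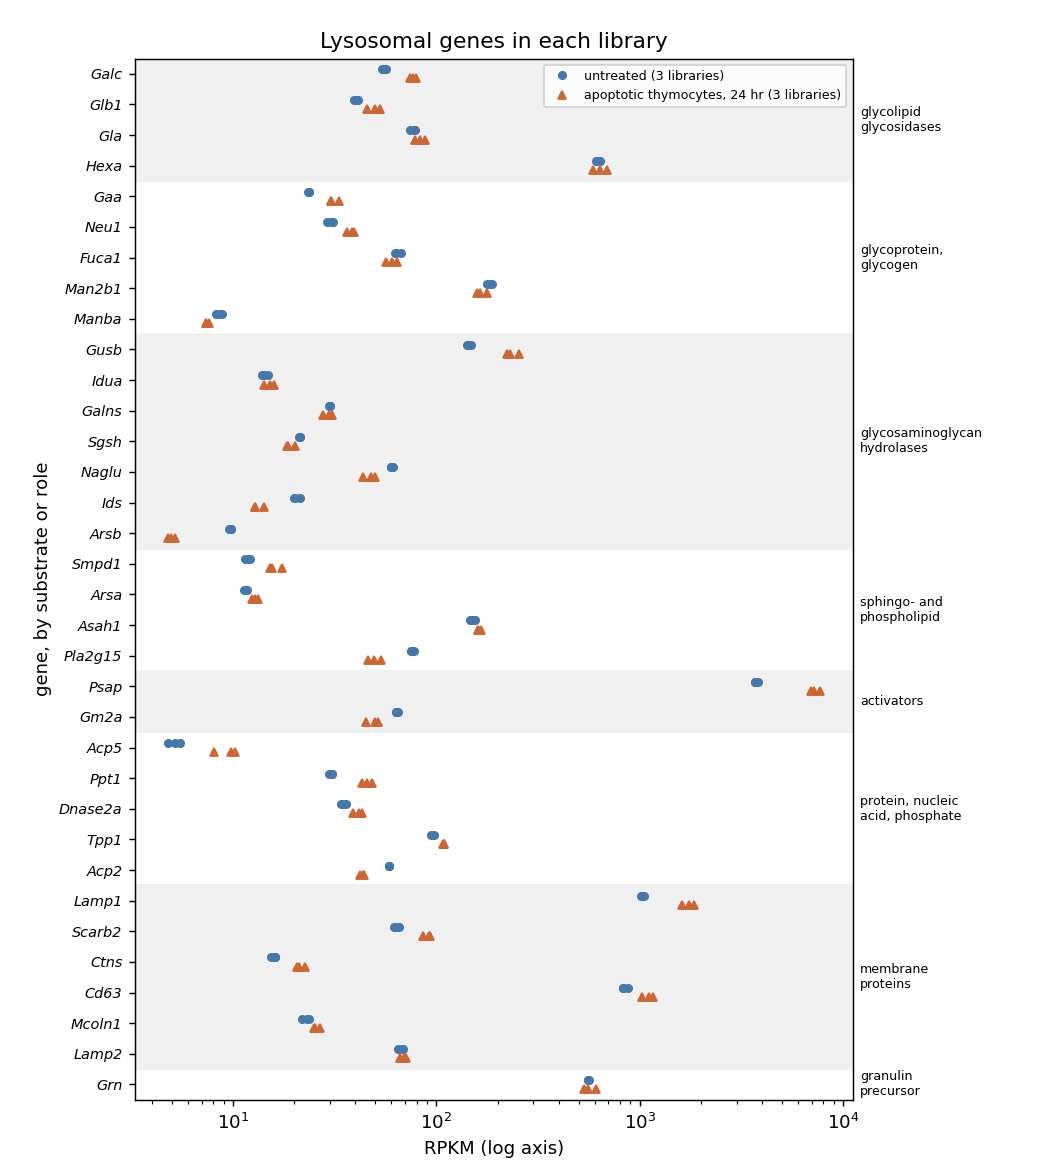
Level of each of the 34 lysosomal genes in each library, in RPKM on a log axis, with genes grouped by substrate or role. Circles are the 3 untreated and triangles the 3 treated libraries. The replicates of a group lie close together beside the spread of levels. That spread runs from Acp5 and Arsb at the low end to Psap at the high end.

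The activators of sphingolipid breakdown went opposite ways. Psap (ENSMUSG00000004207, chromosome 10, 60277627 to 60302597) encodes prosaposin, which is cut into saposins A to D, small proteins that lift lipids out of the membrane for galactosylceramidase, arylsulfatase A and acid ceramidase. It stood at 3823, 3694 and 3675 RPKM in untreated replicates 1 to 3 and at 6932, 7191 and 7716 RPKM in treated replicates 1 to 3, an order used for all values below, as gene positions are given on GRCm38 throughout. Every treated library was above every untreated one, and the rise was 1.95-fold (change of 0.96 log2 units, SE 0.0660, adjusted p = 1.76e-06). Psap ranked as number 10 of the tested genes by mean RPKM in untreated and number 5 in treated libraries. Its share of the RPKM summed over the 34 genes went from 45.1% ± 0.757 to 56.2% ± 0.342 (SD, n = 3). That sum was 8267 ± 78.0 in untreated and 12946 ± 729 in treated libraries. Without Psap the sum was 4536 ± 64.3 and 5666 ± 334. Without Psap, Lamp1 and Cd63 the mean sum was 2666 in untreated and 2829 in treated libraries, 1.06-fold higher. Gm2a (ENSMUSG00000000594, chromosome 11, 55098115 to 55113029), whose product presents ganglioside GM2 to hexosaminidase A, fell 1.31-fold from 63.7, 63.5 and 64.6 to 45.0, 49.6 and 51.4 RPKM (change of -0.39 log2 units, SE 0.0534, adjusted p = 2.02e-04). The groups did not overlap here either.

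Of the 4 glycosidases of glycolipids, 2 rose and 2 did not pass, beside 18.8% of tested genes higher and 46.0% lower. Galc (ENSMUSG00000021003, chromosome 12, 98202304 to 98259459), the enzyme that removes galactose from galactosylceramide and whose loss causes Krabbe disease, was at 54.8, 56.6 and 54.1 RPKM in untreated and 73.8, 77.0 and 79.4 in treated libraries. The groups were apart, with a 1.39-fold rise (change of 0.47 log2 units, SE 0.0441, adjusted p = 1.56e-05). Glb1 (chromosome 9, 114401076 to 114474376), the beta-galactosidase of ganglioside GM1 and keratan sulfate, rose 1.22-fold from 41.3, 40.8 and 39.2 to 45.5, 49.8 and 52.7 RPKM (change of 0.28 log2 units, adjusted p = 0.00221). The gene Tmppe lies within Glb1 on the same strand, at 7.88 and 9.23 RPKM, and its reads could have been shared with it. Hexa (chromosome 9, 59539667 to 59565105), the alpha chain of hexosaminidase A that is lacking in Tay-Sachs disease, was the most abundant glycosidase of the 34 genes and overlapped between the groups, at 614, 636 and 609 and 589.6, 639 and 692 RPKM (change of 0.04 log2 units, adjusted p = 0.559; 0.21 log2 units, adjusted p = 0.0224 after rescaling). Gla (chromosome X, 134588149 to 134601125), the alpha-galactosidase lacking in Fabry disease, was 77.0 ± 2.26 RPKM in untreated and 83.1 ± 4.37 in treated libraries (change of 0.11 log2 units, adjusted p = 0.0836). It passed as higher after rescaling (0.28 log2 units, adjusted p = 0.00178) and without treated replicate 1 (log2 change 0.15, adjusted p = 0.0181).

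Among the lipid hydrolases, 2 of 4 rose, 1 fell and 1 did not pass, beside 18.8% of tested genes higher and 46.0% lower. Smpd1 (chromosome 7, 105554360 to 105558388), the acid sphingomyelinase lacking in Niemann-Pick disease types A and B, rose 1.35-fold from 11.5, 12.1 and 11.96 to 15.2, 15.5 and 17.4 RPKM (change of 0.40 log2 units, SE 0.0573, adjusted p = 2.45e-04). Pla2g15 (ENSMUSG00000031903, chromosome 8, 106150399 to 106164713), a phospholipase A2 that works at acid pH, fell 1.53-fold from 77.7, 75.0 and 75.3 to 45.9, 49.2 and 53.7 RPKM (change of -0.61 log2 units, SE 0.0579, adjusted p = 1.66e-05). In both genes the lowest library of the higher group lay above the highest of the lower group. Arsa (chromosome 15, 89472476 to 89477425), the arylsulfatase that removes sulfate from sulfatide, rose by little, from 11.4, 11.8 and 11.6 to 12.8, 12.4 and 13.2 RPKM (change of 0.13 log2 units, adjusted p = 0.0295). The gene no longer passed when untreated replicate 1 was left out (adjusted p = 0.1), nor without replicate 2 (0.0578) or 3 (0.0812). Asah1 (chromosome 8, 41340197 to 41374773), the acid ceramidase that ends this line of breakdown by freeing sphingosine, was at 147, 155 and 151 and 161, 167 and 160.0 RPKM. Its groups did not overlap, but the change of 0.10 had an adjusted p of 0.0521 (limma). It passed as higher after rescaling (0.27 log2 units, adjusted p = 5.21e-04), without treated replicate 1 (adjusted p = 0.0461) and without treated replicate 3 (0.0334).

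Enzymes of glycosaminoglycans, the long sulfated sugar chains of proteoglycans, were divided. Of 7 such genes 4 fell (57.1%, near the 46.0% of all tested genes that were lower), 1 rose and 2 did not pass. Their median change lay at -0.02 log2 units relative to the median tested gene, and after rescaling 3 were lower and 3 higher. Arsb (ENSMUSG00000042082, chromosome 13, 93771679 to 93943016), which removes sulfate from N-acetylgalactosamine in dermatan and chondroitin sulfate, had the largest fall of the 34 genes on the log2 scale. It went from 9.80, 9.76 and 9.56 to 5.19, 4.97 and 4.78 RPKM, 1.95-fold lower (change of -0.84 log2 units, SE 0.0482, adjusted p = 5.01e-07). Ids (ENSMUSG00000035847, chromosome X, 70343069 to 70365084), the iduronate 2-sulfatase lacking in Hunter syndrome, fell 1.54-fold from 19.8, 20.2 and 21.5 to 12.8, 14.2 and 12.9 RPKM (change of -0.59 log2 units, SE 0.0551, adjusted p = 1.51e-05). All treated libraries were below all untreated ones in both sulfatase genes. Naglu (chromosome 11, 101070012 to 101077672), the alpha-N-acetylglucosaminidase of heparan sulfate, fell 1.28-fold from 61.1, 59.6 and 59.6 to 43.8, 47.5 and 49.98 RPKM (change of -0.35 log2 units, SE 0.0524, adjusted p = 3.70e-04).

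Gusb (ENSMUSG00000025534, chromosome 5, 129989011 to 130003049), beta-glucuronidase, was the single gene of this class that rose. It stood at 142, 147 and 142 RPKM in untreated and 223, 231 and 255 in treated libraries, with no overlap and a 1.64-fold rise (change of 0.71 log2 units, SE 0.0548, adjusted p = 4.01e-06). This enzyme takes glucuronic acid off several glycosaminoglycans and is the one lacking in Sly syndrome. Sgsh (chromosome 11, 119343425 to 119355536), the sulfamidase of heparan sulfate, fell from 21.4, 21.4 and 21.1 to 18.6, 18.5 and 20.1 RPKM (change of -0.15 log2 units, adjusted p = 0.0179). After rescaling its change was 0.01 and the call was lost. It was also lost without untreated replicate 1 (adjusted p = 0.0620), 2 (0.0546) or 3 (0.0514) and without treated replicate 2 (0.0772). Idua (chromosome 5, 108660331 to 108684557), the alpha-iduronidase that acts after Ids, overlapped between the groups at 14.8, 14.2 and 13.9 and 15.9, 15.1 and 14.3 RPKM (change of 0.07 log2 units, adjusted p = 0.241; 0.23 log2 units, adjusted p = 0.00331 after rescaling). Galns (chromosome 8, 122578238 to 122611487), a sulfatase of keratan and chondroitin 6-sulfate, overlapped too, at 29.8 ± 0.239 and 29.3 ± 1.60 RPKM (change of -0.03 log2 units, adjusted p = 0.655), and was higher after rescaling (0.14 log2 units, adjusted p = 0.0470). A gene on the opposite strand, Gm20388, overlaps Galns and stood at 17.4 and 12.9 RPKM.

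Enzymes of heparan sulfate breakdown are found among the 34 genes and in the wider lysosome, and those described here went different ways. Ids, Sgsh and Naglu fell, Idua did not pass, and Gusb rose. Hgsnat, which is not among the 34 genes and acetylates the sugar that Sgsh has freed of sulfate so that Naglu can remove it, rose 1.64-fold from 58.4, 61.5 and 60.7 to 91.9, 101 and 103 RPKM (change of 0.70 log2 units, SE 0.0517, adjusted p = 2.91e-06). Of these 6 enzymes 2 rose, 3 fell and 1 did not pass, a grouping that was put together after the values were seen. Of all tested genes 18.8% were higher and 46.0% lower. After rescaling the call of Sgsh ended and Idua passed as higher, and the other 4 calls held.

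**Figure D2:**
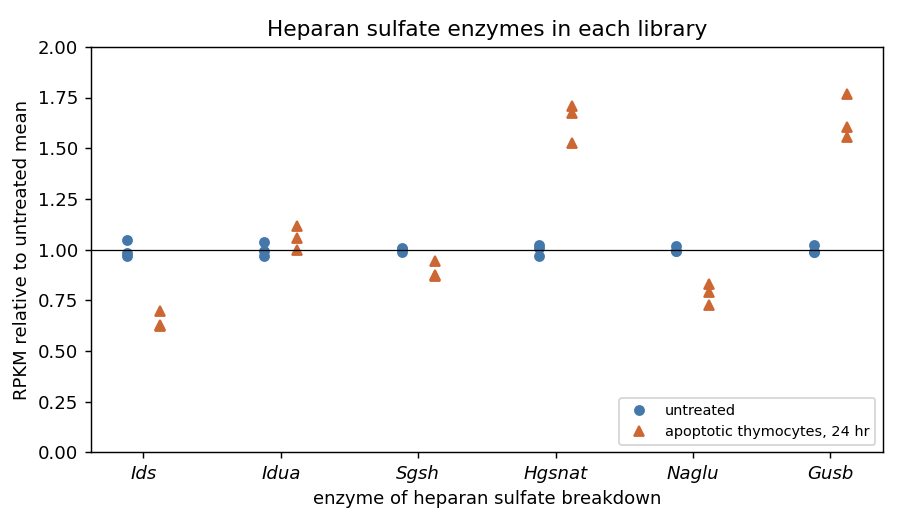
RPKM of 6 enzymes of heparan sulfate breakdown in each library, divided by the mean of the 3 untreated libraries of that gene, with circles for untreated and triangles for treated libraries. Treated libraries lie above the untreated ones for Hgsnat and Gusb, below them for Ids, Sgsh and Naglu, and overlap them for Idua.

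Glycosidases of glycoproteins and glycogen were divided, with 2 higher, 1 lower and 2 not passed, beside 18.8% of tested genes higher and 46.0% lower. Gaa (ENSMUSG00000025579, chromosome 11, 119267887 to 119285454), the acid alpha-glucosidase of glycogen that is lacking in Pompe disease, rose 1.33-fold from 23.7, 23.3 and 23.5 to 30.4, 30.3 and 33.4 RPKM (change of 0.40 log2 units, SE 0.0485, adjusted p = 8.85e-05). Neu1 (chromosome 17, 34931253 to 34935953), the sialidase that takes terminal sialic acid off glycoproteins and glycolipids, rose 1.27-fold from 30.3, 31.0 and 28.9 to 36.5, 38.4 and 39.3 RPKM (change of 0.33 log2 units, SE 0.0470, adjusted p = 2.55e-04). Both genes had groups that did not overlap. Manba (chromosome 3, 135485611 to 135571404), the beta-mannosidase of N-linked glycans, was at 8.21, 8.86 and 8.62 and 7.58, 7.35 and 7.35 RPKM and passed as lower (change of -0.18 log2 units, adjusted p = 0.00864), a call that was lost after rescaling (-0.03 log2 units, adjusted p = 0.603). Its partner in the same chains, the alpha-mannosidase gene Man2b1 (chromosome 8, 85083269 to 85098739), was 182 ± 4.83 and 167 ± 10.2 RPKM (change of -0.13 log2 units, adjusted p = 0.0543) and passed as lower without treated replicate 3 (log2 change -0.18, adjusted p = 0.00568). Fuca1 (chromosome 4, 135920735 to 135940311), the alpha-fucosidase, was 64.1 ± 2.46 and 60.5 ± 3.61 RPKM (change of -0.08 log2 units, adjusted p = 0.203). Without treated replicate 3 it passed as lower too (log2 change -0.12, adjusted p = 0.0481). Both had a positive change after rescaling, at 0.04 and 0.09.

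Of the hydrolases of proteins, nucleic acids and phosphate esters, 4 of 5 rose and 1 fell, beside 18.8% of tested genes higher and 46.0% lower. Acp5 (ENSMUSG00000001348, chromosome 9, 22126731 to 22135746), tartrate-resistant acid phosphatase, was the least abundant of the 34 genes in untreated macrophages and rose 1.82-fold, from 5.17, 5.48 and 4.81 to 8.09, 9.78 and 10.2 RPKM (change of 0.75 log2 units, SE 0.0827, adjusted p = 4.72e-05). It also had the widest spread, on 161 to 389 recovered reads per library. Acp2 (ENSMUSG00000002103, chromosome 2, 91202885 to 91214098), the lysosomal acid phosphatase, fell 1.34-fold from 58.3, 58.2 and 58.6 to 42.2, 43.6 and 44.2 RPKM (change of -0.42 log2 units, SE 0.0392, adjusted p = 1.48e-05). The phosphatase genes changed in opposite directions, each with groups that did not overlap. Ppt1 (ENSMUSG00000028657, chromosome 4, 122836242 to 122859175), the thioesterase that removes palmitate from proteins, rose 1.51-fold from 29.5, 30.6 and 30.6 to 43.1, 45.8 and 48.3 RPKM (change of 0.58 log2 units, SE 0.0497, adjusted p = 8.22e-06). It overlaps Cap1 on the opposite strand, which stood at 249 RPKM in untreated and 195 in treated libraries, and whether strand was used in counting is not given in the sources used here. In all, 10 of the 34 genes overlap a gene on the opposite strand, with Dgkq (Idua) at 4.22 and 3.95 RPKM and Ddb2 (Acp2) at 1.93 and 1.37. Dnase2a (chromosome 8, 84908560 to 84922915), the acid nuclease with which macrophages digest the DNA of engulfed cells, rose 1.18-fold from 33.9, 35.9 and 34.9 to 39.0, 41.6 and 43.3 RPKM (change of 0.24 log2 units, SE 0.0495, adjusted p = 0.00265). Tpp1 (chromosome 7, 105744847 to 105752207), a tripeptidyl peptidase, rose 1.13-fold from 95.9 ± 1.87 to 108 ± 0.167 RPKM (change of 0.18 log2 units, adjusted p = 0.00341). Grn (chromosome 11, 102430315 to 102437048), whose product progranulin is secreted and also cut into granulins in the lysosome, overlapped between the groups at 561, 554 and 557 and 531, 558 and 608 RPKM (change of 0.02 log2 units, adjusted p = 0.773; 0.19 log2 units, adjusted p = 0.0265 after rescaling).

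Of the 6 membrane protein genes among the 34, 5 rose, 0 fell and 1 did not pass. Of all tested genes 18.8% were higher and 46.0% lower. The 26 tested membrane protein genes among the further lysosomal genes described below were split, with 7 higher, 7 lower and 12 not passed. Lamp1 (ENSMUSG00000031447, chromosome 8, 13159135 to 13175338), one of the heavily glycosylated proteins that line the inside of the membrane, was the second most abundant of the 34 genes. It was at 1009.9, 1044 and 1023 RPKM in untreated and 1618, 1744 and 1841 in treated libraries, 1.69-fold higher (change of 0.76 log2 units, SE 0.0596, adjusted p = 4.63e-06). Its relative Lamp2 (ENSMUSG00000016534, chromosome X, 38401357 to 38456454), which also serves chaperone-mediated autophagy and is lacking in Danon disease, was at 64.5, 68.0 and 68.4 and 69.5, 71.2 and 66.5 RPKM. The groups of Lamp2 overlapped (change of 0.04 log2 units, adjusted p = 0.422; 0.21 log2 units, adjusted p = 0.00317 after rescaling). Cd63 (ENSMUSG00000025351, chromosome 10, 128908919 to 128912816), a tetraspanin of late endosomes and lysosomes, rose 1.31-fold from 828, 878 and 828 to 1031, 1115 and 1165 RPKM (change of 0.38 log2 units, SE 0.0593, adjusted p = 4.23e-04). A pseudogene, Cd63-ps, was at 0.672 and 0.901 RPKM, and reads could have been split with it. Scarb2 (ENSMUSG00000029426, chromosome 5, 92443873 to 92505608), a lysosomal membrane protein of the CD36 family, rose 1.42-fold from 62.2, 65.4 and 63.5 to 85.6, 91.7 and 93.3 RPKM (change of 0.49 log2 units, SE 0.0468, adjusted p = 1.60e-05). For these genes that rose, every treated library was above every untreated one. Ctns (chromosome 11, 73183596 to 73199042), the cystine exporter lacking in cystinosis, rose 1.35-fold from 15.4, 16.0 and 16.0 to 20.6, 21.1 and 22.6 RPKM (change of 0.41 log2 units, SE 0.0488, adjusted p = 7.31e-05). Mcoln1 (chromosome 8, 3500457 to 3515232), a calcium channel of the lysosome, rose 1.13-fold from 23.7, 21.7 and 23.2 to 25.3, 25.1 and 26.8 RPKM (change of 0.17 log2 units, adjusted p = 0.0156), a call that was lost without untreated replicate 2 (log2 change 0.13, adjusted p = 0.0678).

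**Figure D3:**
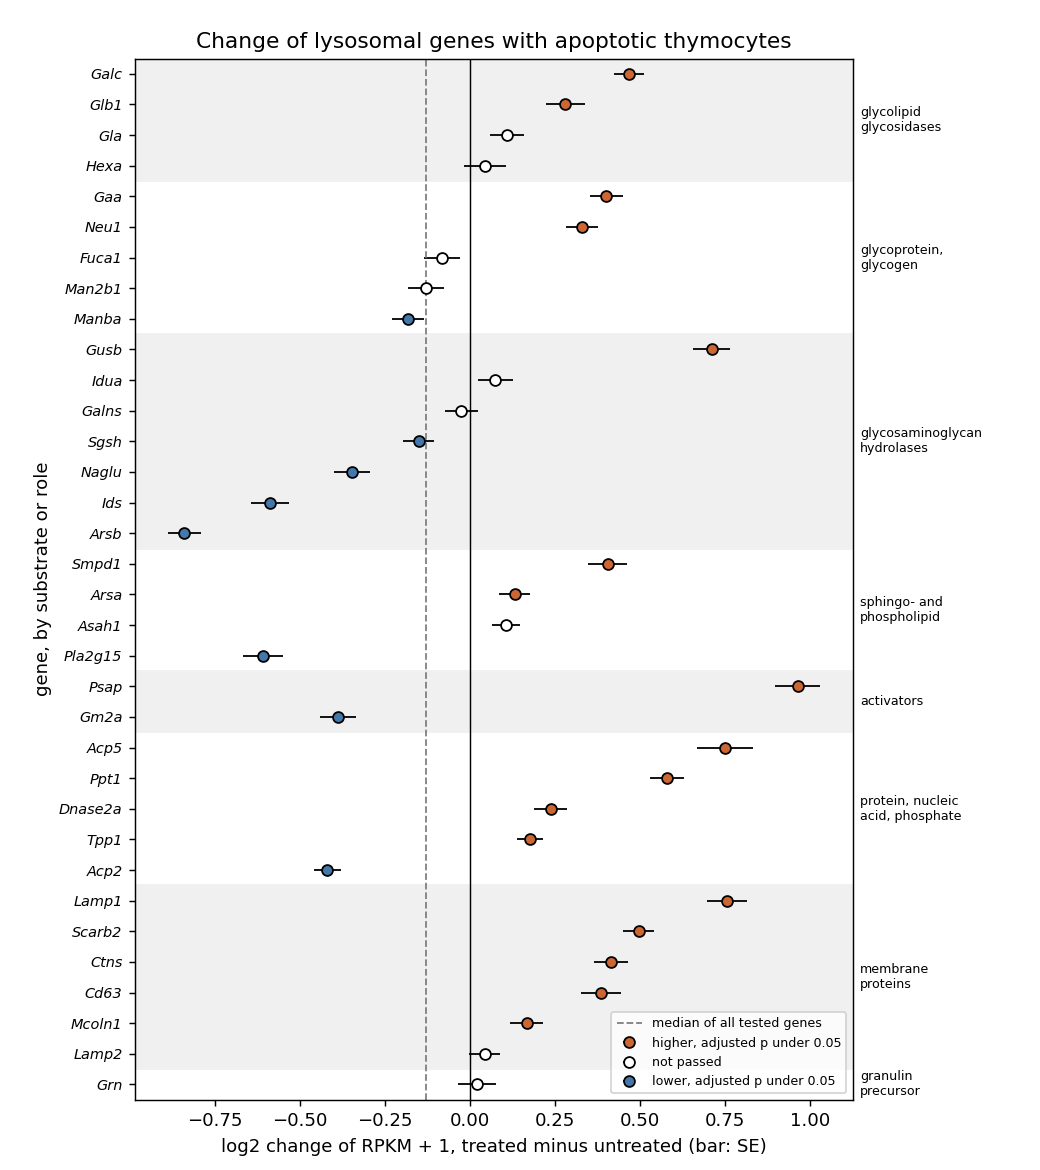
Log2 change of RPKM + 1, treated minus untreated, for each of the 34 genes, with bars for the standard error from limma and filled points for genes past an adjusted p of 0.05. Changes lie between those of Arsb and Psap. Filled points are 5 of the 6 membrane proteins on the right of 0 and 4 of the 7 glycosaminoglycan hydrolases on its left. The dashed line marks the median of all tested genes, at -0.13.

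Many lysosomal genes carry an E-box of the letters CACGTG near their start, as part of an element bound by TFEB and its relatives. Promoters in a RefSeq table on GRCm38, from 250 bases before to 50 bases after the transcript start, were found for 32 of the 34 genes and searched for CACGTG, which reads the same on both strands. It was present in 8 of the 32 genes (25.0%), and in 8.09% of the 27025 genes of the table. The longer TCACGTGA, which contains it, was in 2 of the 32 genes (Gla and Mcoln1) and in 1.12% of all genes. A form longer by 1 base on each side was in 0 of 32 and 0.37%. By the result of the test, CACGTG was in 5 of 17 matched genes that rose, 2 of 8 that fell and 1 of 7 that did not pass. It is thus found in genes of either direction. Those that fell were Naglu and Sgsh, and the call of Sgsh was lost after rescaling. The stretches below show it in 4 genes that rose and in 2 that fell, read 5′ to 3′ on the strand of the gene, with CACGTG in capitals.
Lamp1 (chr8:13159061-13159160, plus strand): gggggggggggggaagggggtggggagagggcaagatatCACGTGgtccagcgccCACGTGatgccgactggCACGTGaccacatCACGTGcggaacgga
Mcoln1 (chr8:3500387-3500486, plus strand): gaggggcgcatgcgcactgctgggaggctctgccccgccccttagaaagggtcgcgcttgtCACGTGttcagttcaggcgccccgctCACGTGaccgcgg
Glb1 (chr9:114400978-114401077, plus strand): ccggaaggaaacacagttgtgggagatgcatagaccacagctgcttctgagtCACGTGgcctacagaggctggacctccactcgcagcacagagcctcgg
Gaa (chr11:119267773-119267872, plus strand): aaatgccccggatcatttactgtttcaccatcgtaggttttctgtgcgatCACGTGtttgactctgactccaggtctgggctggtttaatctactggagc
Naglu (chr11:101069942-101070041, plus strand): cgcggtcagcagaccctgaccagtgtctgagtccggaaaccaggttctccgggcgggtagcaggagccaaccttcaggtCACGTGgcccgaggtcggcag
Sgsh (chr11:119355511-119355610, minus strand): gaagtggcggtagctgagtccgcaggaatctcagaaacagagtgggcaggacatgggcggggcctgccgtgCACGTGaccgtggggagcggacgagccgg
Lamp1 held the letters 4 times, at 61, 45, 28 and 15 bases before its start, and Mcoln1 held them 2 times, at 71 and 45 bases. The others shown held them once, Glb1 at 48, Gaa at 140, Naglu at 73 and Sgsh at 29 bases. A match of letters is not evidence of binding. Of the factors that bind such elements, Tfeb fell 1.32-fold from 9.12, 8.67 and 8.92 to 6.48, 6.88 and 6.90 RPKM (change of -0.35 log2 units, adjusted p = 1.92e-04) and Tfe3 fell 1.26-fold from 15.4 ± 0.472 to 12.2 ± 0.283 (change of -0.31 log2 units, adjusted p = 2.79e-04). Mitf fell 2.19-fold from 12.5, 11.98 and 12.7 to 6.30, 5.35 and 5.27 RPKM (change of -1.01 log2 units, adjusted p = 1.15e-06), while Tfec, a relative expressed in macrophages, rose 3.34-fold from 6.49, 6.84 and 6.48 to 22.6, 22.6 and 20.9 RPKM (change of 1.60 log2 units, adjusted p = 1.03e-08).

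Genes whose products work together were compared within each library. A ratio of RPKM is not affected by the scaling between libraries. The log2 ratios, taken on RPKM + 1, can still depend on it, most for genes of low level. The ratio of Lamp1 to Lamp2 in RPKM went from 15.7, 15.3 and 14.96 to 23.3, 24.5 and 27.7 (a difference of 0.71 in log2 ratio, taken on RPKM + 1). Hexa to its activator Gm2a went from 9.64, 10.0 and 9.43 to 13.1, 12.9 and 13.5 (0.43). In both pairs all treated ratios were above all untreated ones.

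Relative to Psap, both enzymes tested that use saposins were lower in all treated libraries. The log2 ratio of Galc to Psap changed by -0.50 and that of Arsa to Psap by -0.83. Galc and Arsa themselves rose. Psap had the largest rise of the 34 genes, so the mean log2 ratio of any other of them to Psap had to fall. Ids to Idua, which act one after the other, went from 1.34, 1.42 and 1.55 to 0.802, 0.943 and 0.903 (-0.66). Naglu to Sgsh differed by -0.20, again without overlap. Glb1 to Neu1, whose products sit in 1 complex, overlapped between the groups, at 1.36, 1.32 and 1.36 and 1.249, 1.30 and 1.34 (-0.05). The 2-sided exact permutation test over libraries gave p = 0.1, the smallest that 3 against 3 libraries allow, for 6 of these 7 pairs and p = 0.2 for Glb1 to Neu1, or 0.1125 and 0.2 adjusted over the 9 pairs tested, so that 0 pairs could pass 0.05 in this design.

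**Figure D4:**
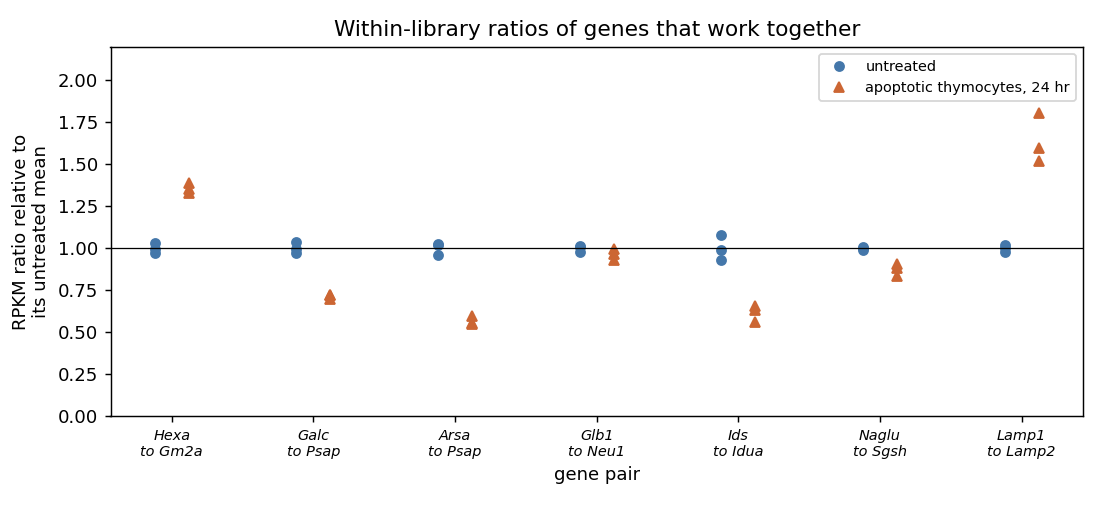
Ratio of the RPKM of 2 genes within each library, divided by the mean ratio of the 3 untreated libraries, for 7 pairs of genes whose products work together, with circles for untreated and triangles for treated libraries. Hexa to Gm2a and Lamp1 to Lamp2 are higher in all treated libraries, 4 pairs are lower, and Glb1 to Neu1 overlaps.

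With the deposited scaling, lysosomal genes beyond the 34 were likewise split. Of 68 further genes for enzymes, sorting and membrane proteins, 59 passed the expression filter, and 20 of these rose, 17 fell and 22 did not pass, against 18.8% and 46.0% of tested genes in each direction. After rescaling 36 were higher and 10 lower (61.0% and 16.9%), against 31.8% and 27.9% of tested genes. Among the enzymes, Pla2g7 rose 7.004-fold from 47.7, 50.7 and 48.4 to 336, 341 and 352 RPKM (change of 2.78 log2 units, adjusted p = 1.93e-10); it encodes a secreted acetylhydrolase of platelet-activating factor and not a resident lysosomal enzyme. Naaa, an acid amidase of N-acylethanolamines, rose 2.44-fold from 5.56 ± 0.361 to 13.6 ± 0.793 RPKM. The chitobiase gene Ctbs fell 1.87-fold from 10.7 ± 0.220 to 5.72 ± 0.140 RPKM, and Pld4 from 126 ± 1.91 to 81.6 ± 4.58. Smpdl3b, whose product is likewise not a resident lysosomal enzyme but is held at the cell surface, fell from 2.56 ± 0.114 to 0.687 ± 0.0844 RPKM. Of the sorting genes, Sort1, which encodes the sorting receptor sortilin, rose 5.27-fold from 12.9, 13.1 and 12.7 to 65.6, 67.7 and 70.8 RPKM (change of 2.31 log2 units, adjusted p = 5.55e-10). M6pr, a gene for 1 of the mannose 6-phosphate receptors, fell 1.19-fold from 103, 109 and 108 to 87.5, 91.5 and 89.8 RPKM (change of -0.25 log2 units, adjusted p = 8.34e-04, limma). Its fall did not pass after rescaling. Gnptg, a subunit of the enzyme that starts the tag, rose 1.38-fold from 11.5 ± 0.601 to 15.9 ± 0.483. Cln6, which encodes a membrane protein of the endoplasmic reticulum, fell from 30.2 ± 1.30 to 21.9 ± 2.46. Nagpa, the enzyme that uncovers the tag, fell from 25.2 ± 0.681 to 21.3 ± 1.23 RPKM, a call that ended after rescaling (-0.07 log2 units, adjusted p = 0.300). Of the membrane proteins, Slc11a1, a metal ion transporter of the phagosome, rose 3.55-fold from 78.7, 76.7 and 77.4 to 269, 269 and 287 RPKM (change of 1.81 log2 units, adjusted p = 1.95e-09), and the amino acid transporter gene Slc36a1 rose 2.12-fold from 13.1 ± 0.470 to 27.9 ± 0.301. Tpcn1 and Tpcn2, which encode cation channels of endosomes and lysosomes, fell, Tpcn1 1.93-fold from 24.4 ± 0.798 to 12.6 ± 1.00 RPKM and Tpcn2 from 35.0 ± 1.42 to 23.3 ± 1.33. Laptm4a and Sidt2 rose as well, from 183 ± 8.21 to 287 ± 15.3 and from 21.0 ± 0.794 to 32.1 ± 2.62 RPKM, and Mfsd12 and the iron transporter gene Slc11a2 fell, from 119.9 ± 0.948 to 77.6 ± 5.35 and from 12.8 ± 0.604 to 8.73 ± 0.592 RPKM.

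Recovered depth was 19315132 to 25933208 mapped reads per library, and the 34 genes had 161 to 498670 reads each. The coefficient of variation of the 34 genes had a median of 2.43% among untreated and 5.51% among treated libraries. Treated replicate 3 was the highest treated library in 27 of the 34 genes and treated replicate 1 the lowest in 24, which held for 43.5% and 42.7% of tested genes. Leaving out any 1 library gave 15 to 19 higher and 7 to 10 lower genes among the 34. All 12 macrophage marker genes were expressed, of which 3 rose and 8 fell, beside 18.8% of tested genes higher and 46.0% lower. The most abundant in treated libraries were Lyz2 at 13388 ± 408 and 19418 ± 1128 RPKM, C1qb at 1200.0 ± 30.8 and 1827 ± 134, and Cd68 at 1274 ± 26.9 and 1144 ± 35.0. The falls reached 7.09-fold for Fcgr1, from 52.7 ± 2.54 to 7.43 ± 0.401 RPKM, with Cd14 3.96-fold, Itgam 3.61-fold, Aif1 3.30-fold and Csf1r 1.49-fold lower, genes named here after their values were seen. The part of these marker changes in the results was not tested. Of 18 thymocyte and T cell markers, 17 were under 1 RPKM in both groups, and without Cd4, which was at 4.32 ± 0.165 and 2.14 ± 0.155 RPKM, their sum was 0.478 to 0.815 in untreated and 0.286 to 0.375 in treated libraries. Cd3e, Cd8b1, Rag2, Ptcra and Themis were at 0 in all 6 libraries. The 7 erythroid markers summed to 0 to 0.0601 RPKM in untreated and 0.923 to 1.48 in treated libraries, and the 7 neutrophil markers to 0.203 to 0.386 and 3.74 to 4.22. Sums of the B cell, dendritic cell and stromal lists were at most 2.93 RPKM in any library. The part of the erythroid and neutrophil traces in the results was not tested.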

How the data were processed

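Per the labels' protocols, libraries came from poly(A) RNA with a stranded TruSeq kit. The authors deposited 1 table of RPKM values, per the file headers, with 1 column for each of 6 libraries, on GRCm38 (mm10) per the labels. The aligner, counting program, gene models and use of strand are not given in the sources used here, so genes with overlapping or near-identical copies are uncertain. Columns were matched to samples by name, and 0 columns were left over.

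A gene was tested if 3 or more libraries reached 1 RPKM. The model was limma 3.58.1 under R 4.3.3 on log2(RPKM + 1), with the group as its term and the variance following the mean level, and p-values were adjusted by Benjamini-Hochberg over 10173 genes. A pseudocount of 1 understates changes of genes near 1 RPKM. Fold changes are ratios of mean RPKM, and errors are SD of 3 libraries unless SE is named. Depth was recovered from the genes at 1 read, with GENCODE M21 exon lengths. Reads were whole within 0.001 for all 34 genes, 20 at the annotated length and 14 at the nearest length that gave whole reads, which leaves a common factor within a gene uncertain. Intervals from reads would cover counting error only. The fit was tested on simulated data in which few genes changed, equally in both directions, so that test does not cover the scaling between libraries. Other steps used Python 3.11.15, scipy 1.17.1, numpy 2.4.6 and pandas 2.3.3.

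The 34 genes and the other lists (166 entries, all found, 3 by gene identifier) were chosen with earlier results of these data known. By rule the text names all 34 genes, the genes of 9 pairs, up to 4 genes per direction of the other lysosomal lists with the smallest p, 4 factors of the TFEB family and up to 3 markers per cell type. Other markers are given as sums, and heparan sulfate enzymes were grouped after their values were seen. Alternatives were other filters, pseudocounts, scalings, limma variance models, a replicate block and leaving out each library. A few genes and 2 pairs under that rule are not reported here. Protein sequences were not analysed here.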

Additional observations from a re-analysis of the deposited data

How the results depend on the processing

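Of the 25 calls among the 34 lysosomal genes, 21 were kept in all 15 alternatives, and those of Arsa, Manba, Mcoln1 and Sgsh were lost in at least 1. Median-of-ratios and upper-quartile scaling moved the counts of all tested genes, to 3235 and 3280 higher and to 2836 and 2814 lower, and those of the other lysosomal genes to 36 higher and 10 lower under either. The median change of the 34 genes became 0.283 and 0.286 on the log2 scale. With the same scalings the change of Galns turned to 0.139 and 0.142 and that of Sgsh to 0.0113 and 0.0145. The cause was not tested. Leaving out 1 library gave 1549 to 1949 higher and 3657 to 4708 lower genes of all tested. Whether the replicate numbers in the titles pair the samples was not established. Same-numbered libraries had correlations of their deviations from the group means of 0.197, -0.031 and -0.162. Not every library correlated best with its own number. Such correlations cannot show whether same-numbered libraries shared an origin. A fit with the replicate number as a block gave 16 higher and 8 lower of the 34 genes, 1904 and 4627 of all tested genes, and 21 and 17 of the other lysosomal genes; Arsa lost its call (adjusted p = 0.0506). Acp5, with the fewest reads, is the gene whose precision depth limits most.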

Other observations

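Cd68, a glycoprotein of the macrophage lysosome, fell from 1274 ± 26.9 to 1144 ± 35.0 RPKM (change of -0.16 log2 units, adjusted p = 0.0227, limma). Laptm5, which encodes a lysosomal membrane protein of blood cells, fell 1.16-fold from 355 ± 1.57 to 306 ± 18.7 RPKM. Neither Cd68 nor Laptm5 passed with median-of-ratios scaling. Hyal1, a hyaluronidase that acts at acid pH, rose 1.74-fold from 6.51 ± 0.328 to 11.4 ± 0.469 RPKM. Clcn7, the chloride and proton exchanger of the lysosome, rose 1.27-fold from 53.2 ± 0.441 to 67.7 ± 2.12 RPKM. Lamp3, a relative of Lamp1 and Lamp2, was at 0 in all 3 untreated libraries and at 0, 0 and 0.0254 RPKM in treated ones. The sialidase gene Neu4 was at 0 in all 6. Gpnmb, a glycoprotein of macrophage lysosomes, was more abundant than Lamp1 and stood at 4325, 4204 and 4308 RPKM in untreated and 4333, 4352 and 4719 in treated libraries (change of 0.06 log2 units, adjusted p = 0.409); it was called higher under median-of-ratios scaling. These genes were chosen after their values were seen.

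Among the erythroid markers the highest treated level was that of Hba-a2, at 0 RPKM in untreated and 0.704 in treated libraries, and among the neutrophil markers that of Ngp, at 0.181 and 2.81 RPKM.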
